A study of Mus musculus with 8 samples.

Results

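Genes of the interferon response were measured in mouse hemogenic endothelium given doxycycline to induce the transcription factor Runx1. The group was chosen by name, as 43 gene symbols that cover interferon receptors, signal transducers, sensors of foreign nucleic acid and interferon-induced antiviral proteins. Earlier results of these data were known when the members and the other gene lists below were chosen. The shares of each list that passed a test are therefore descriptive. Through the RefSeq accession of each probe, 41 of the 43 matched a probe, and Mx1 and Mx2 matched none. Of the 41, 37 passed the filter on dim probes and were tested, among 14519 genes tested of 20145 with a probe. Irf7, Oas2, Ifit1 and Ifi44 did not pass it.

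Interferons are secreted proteins that cells release when they detect viruses or misplaced nucleic acid. Type I interferons bind a receptor made of Ifnar1 and Ifnar2, and interferon gamma binds one made of Ifngr1 and Ifngr2; JAK kinases on the receptors then activate STAT factors. Stat2 and Irf9 act in a complex that binds interferon-stimulated response elements, and STAT dimers bind gamma-activated sites, so that antiviral genes are switched on. Hemogenic endothelium is the endothelial stage from which blood stem and progenitor cells arise, a step that needs Runx1, and interferon and related inflammatory signals are known to act on blood formation in vertebrate embryos.

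The induced group was 3 arrays of iRUNX1 cells, strain C57BL/6 in the labels, which carry Runx1 in a doxycycline-responsive Tet-on system and were given doxycycline overnight at 0.3 µl/ml, the unit the labels use. The uninduced group was 3 arrays of iRUNX1 cells without doxycycline; induced and uninduced here name the treatment. All came from embryoid bodies of 3.25 days by 2 selections for Flk-1, the receptor encoded by Kdr, and then spent 2 days in medium with oncostatin, basic FGF and stem cell factor. The labels describe the replicates as independent and add 1 technical repeat array per group, which stayed out of the tests. No group received doxycycline without the inducible gene, so effects of the drug and of Runx1 cannot be told apart. Whether the line is 1 clone, and the state of its own Runx1 alleles, are not given in the sources used here.

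The 6 arrays had 75th percentile signals of 973, 595 and 543 on induced arrays 1 to 3, against 699, 378 and 338 on uninduced arrays 1 to 3, and between 55.6% and 70.4% of spots on the 8 arrays were well above background. The endothelial markers Cdh5, Pecam1 and Kdr were well above background on all 6 arrays. A Runx1 probe was lower in induced cells in all 3 pairs, with -6.14, -5.71 and -4.95 on the 3 induced arrays, against -4.71, -4.72 and -4.28 on the 3 uninduced arrays (limma adjusted p = 0.126, and 0.0214 with the replicate block). A second Runx1 probe was well above background on none of the 6 arrays, and whether either probe matches the induced transcript is not known here, so neither checks the labels. The induced technical repeat array lay outside the range of the 3 induced replicates for 73.3% of genes, 50.8% above it and 22.5% below it; the uninduced repeat lay outside its range for 41.7% of genes.

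Levels below are log2 signals relative to the array's own 75th percentile, so that 0 is the brightness of that percentile, and a change is the induced minus the uninduced mean. Levels of different probes cannot be set against each other. A gene is said to have risen or fallen where limma gave a Benjamini-Hochberg adjusted p under 0.05 over all 14519 genes. The replicate numbers pair the arrays, and results of the fit with the number as a block are given where they change a call. In bulk RNA, fewer cells of a type and less RNA per cell cannot be told apart.

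Of the 37 members tested, 4 rose (Ifitm1, Usp18, Irf1 and Gbp3), 2 fell (Ifit3 and Gbp6) and 31 did not pass the test. The share that rose was 10.8%, beside 4.14% of all genes tested, and the share that fell was 5.41%, beside 2.16%. Fitted with the replicate number as a block, 7 members were called higher (18.9%, beside 9.37% of all genes) and 4 lower (10.8%, beside 6.8%). The members' changes ran from -2.29 to 3.39 on the log2 scale with a median of 0.16, and the median over all genes tested was 0.09. Of their changes 21 were above 0 and 16 below, 56.8% above, beside 59.0% of all genes. At an unadjusted limma p under 0.05, 8 members were higher and 5 lower, and of all genes 13.9% were higher and 7.76% lower, the shares beside which such counts below are to be read. The 3 induced arrays lay above the 3 uninduced arrays for 9 members (24.3%, beside 19.6% of all genes) and below them for 2 (5.41%, beside 8.71%), and the groups overlapped for 26. The typical error was like that of other genes, with a median SE of 0.22 for the members and 0.21 for all genes.

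**Figure D1:**
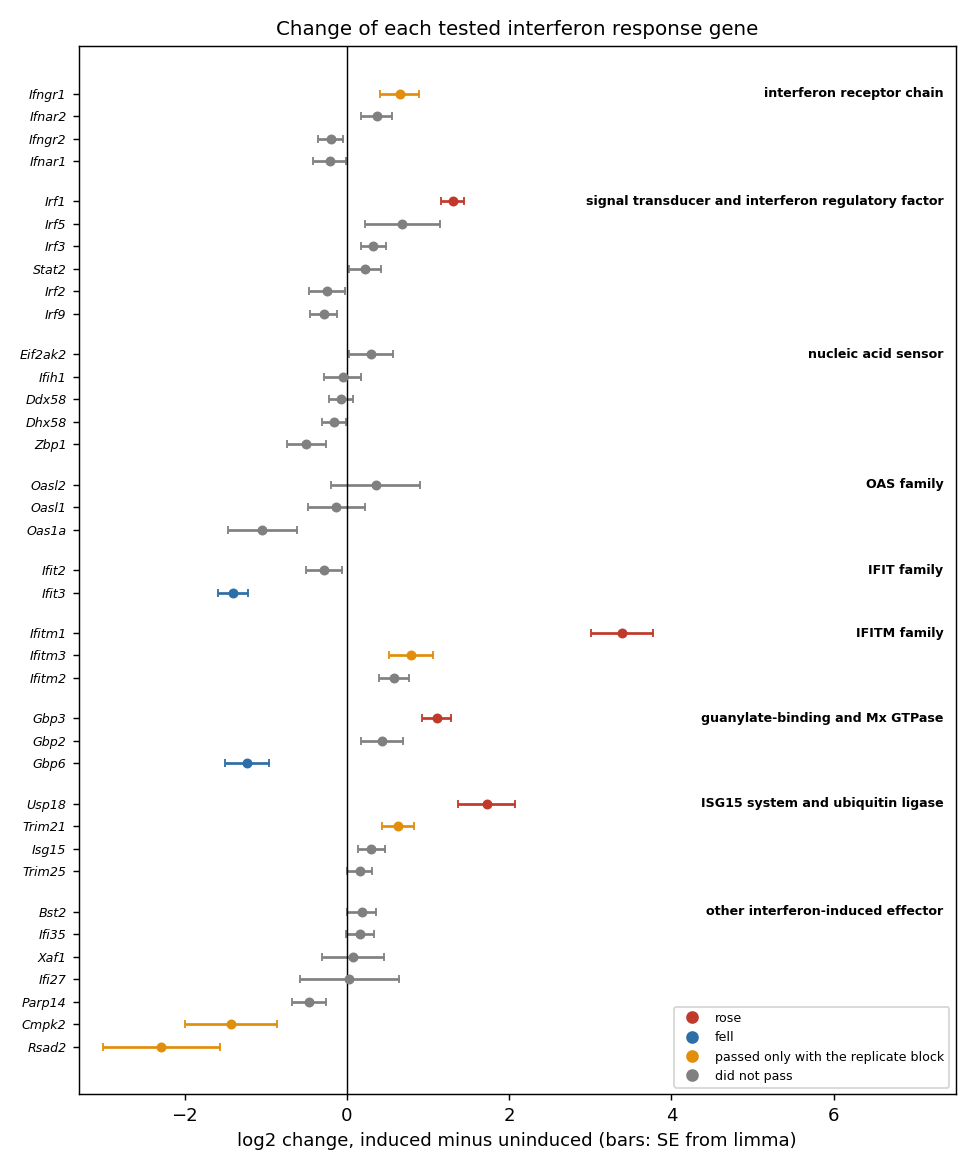
Log2 change of each of the 37 tested interferon response genes, induced minus uninduced, on the horizontal axis, with the genes down the page by role; bars are the SE from limma (3 arrays per group). Ifitm1 stands alone at 3.39, Ifit3 and Gbp6 fell, and the genes in orange passed the threshold only with the replicate block.

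Promoter sequence was set beside these changes, since interferon acts on its targets through known elements. The 250 bases before the start were available from RefSeq (GRCm38.p6) for 34 of the 43 genes. They were searched on both strands for GAAA, any 2 bases and GAAA, the core of the interferon-stimulated response element, for TTCNNNGAA, the gamma-activated site, and for TGTGGT, a RUNX motif. The response element core was found in 11 of 34 genes (32.4%), beside 2.98% of 32851 promoter windows of the same length. For each motif a gene counted if the window of any of its starts matched, while the second share counts single windows. Gbp3, Ifit2, Irf1 and Irf9 had 2 starts each. The gamma-activated site was found in 7 of 34 (20.6%, beside 7.02%), and the RUNX motif in 4 of 34, Cmpk2, Gbp2, Oasl2 and Stat2 (11.8%, beside 14.05%). In Bst2 a gamma-activated site overlapped a response element core. A match is a description of the letters, not a site shown to be bound. The windows below belong to the members that rose or fell and had a promoter in the table, to Rsad2, the member with the lowest change, and to Isg15, a classic interferon target that did not pass the test. Capitals mark the matches, and positions count the first base of a match back from the start.
Ifitm1: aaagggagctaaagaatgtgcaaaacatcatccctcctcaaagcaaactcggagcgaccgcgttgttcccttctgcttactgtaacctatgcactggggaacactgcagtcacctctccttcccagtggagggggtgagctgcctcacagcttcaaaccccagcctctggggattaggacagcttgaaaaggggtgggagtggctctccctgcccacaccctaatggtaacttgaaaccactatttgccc
Irf1: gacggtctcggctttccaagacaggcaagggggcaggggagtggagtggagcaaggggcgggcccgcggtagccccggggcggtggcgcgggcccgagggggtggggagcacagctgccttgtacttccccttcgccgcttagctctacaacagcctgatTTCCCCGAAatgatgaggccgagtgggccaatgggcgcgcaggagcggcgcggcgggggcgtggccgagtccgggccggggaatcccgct
Gbp3: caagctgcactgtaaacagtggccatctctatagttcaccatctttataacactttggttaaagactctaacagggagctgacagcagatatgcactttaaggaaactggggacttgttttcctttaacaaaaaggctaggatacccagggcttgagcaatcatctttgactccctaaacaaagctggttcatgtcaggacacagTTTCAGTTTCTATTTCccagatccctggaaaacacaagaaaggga
Ifit3: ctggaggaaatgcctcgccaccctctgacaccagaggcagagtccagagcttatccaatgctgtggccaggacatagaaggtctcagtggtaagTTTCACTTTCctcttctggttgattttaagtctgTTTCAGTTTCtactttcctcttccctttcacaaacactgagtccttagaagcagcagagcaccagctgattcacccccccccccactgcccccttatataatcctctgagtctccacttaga
Rsad2: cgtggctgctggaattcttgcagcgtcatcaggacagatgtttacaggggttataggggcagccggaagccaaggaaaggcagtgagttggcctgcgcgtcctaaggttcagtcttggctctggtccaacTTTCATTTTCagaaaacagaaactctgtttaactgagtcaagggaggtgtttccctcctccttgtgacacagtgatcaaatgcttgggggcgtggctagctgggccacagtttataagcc
Isg15: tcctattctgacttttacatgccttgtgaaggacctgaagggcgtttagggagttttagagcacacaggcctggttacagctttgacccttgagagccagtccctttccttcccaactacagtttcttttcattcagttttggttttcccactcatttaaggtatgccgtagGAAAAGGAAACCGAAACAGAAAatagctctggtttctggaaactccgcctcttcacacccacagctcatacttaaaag
The Ifitm1 window (chr7:140967826-140968075, plus strand) held none of the 3 motifs. The Irf1 window (chr11:53769764-53770013, plus strand, the first of 2 starts) held a gamma-activated site at base 90. The Gbp3 window (chr3:142559794-142560043, plus strand, the first of 2 starts) held overlapping response element cores at bases 45 and 39, and the window of its second start, like that of Irf1, held no match. The Ifit3 window (chr19:34583279-34583528, plus strand) held cores at bases 156 and 122, the Rsad2 window (chr12:26456453-26456702, minus strand) 1 at base 120, and the Isg15 window (chr4:156200819-156201068, minus strand) 3 overlapping ones at bases 78, 72 and 66. Members with the core went both ways: of the 10 tested, 1 rose (Gbp3), 1 fell (Ifit3) and 8 did not pass, with a median change of 0.20, and of the 21 tested without it, Irf1 and Ifitm1 rose and 19 did not pass, with a median change of 0.16.

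Among the receptor chains, none of the 4 passed the test, 1 (Ifngr1) had an unadjusted limma p under 0.05, and the changes lay between -0.21 and 0.65. Ifngr1, the ligand-binding chain of the interferon gamma receptor, had levels of 3.47, 3.42 and 3.77 on the 3 induced arrays, against 2.54, 2.82 and 3.35 on the 3 uninduced arrays. All 3 induced arrays were above all 3 uninduced ones, by a narrow margin. Its change was 0.65 (SE 0.24, adjusted p = 0.184), and it passed with the replicate block (adjusted p = 0.0447). The repeat arrays did not show that difference, with 3.52 on the induced repeat and 3.57 on the uninduced one. The partner chain Ifngr2 had a change of -0.20 (SE 0.15, adjusted p = 0.482). Of the type I receptor, Ifnar2 had a change of 0.37 (SE 0.19, adjusted p = 0.319) and Ifnar1 one of -0.21 (SE 0.20, adjusted p = 0.572). The 3 Ifnar1 probes gave -0.21, -1.10 and -0.23, and the brightest, the first, was the one tested.

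Of the 6 signal transducers and interferon regulatory factors tested, Irf1 rose and the other 5 did not pass. Irf1, a factor induced by interferon gamma that switches on antiviral and antigen presentation genes, had levels of 3.20, 3.22 and 2.93 on the 3 induced arrays, against 1.76, 1.84 and 1.84 on the 3 uninduced arrays. The induced arrays lay within 0.29 of each other and the uninduced ones within 0.08, and the groups did not overlap. Irf1 averaged 3.11 ± 0.16 in induced cells and 1.81 ± 0.05 in uninduced cells (SD, n = 3 each), a 2.47-fold rise (log2 change 1.30, SE 0.15, adjusted p = 0.00525). Irf1 was higher in the induced array of each numbered pair, by 1.44, 1.38 and 1.09.

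Irf3, the factor that sensor kinases activate to start interferon production, had levels of 4.22, 3.84 and 3.92 on the 3 induced arrays, against 3.70, 3.68 and 3.64 on the 3 uninduced arrays. Its groups did not overlap either, but the induced arrays spread over more than the gap between the groups, and the change of 0.32 (SE 0.15) did not pass (adjusted p = 0.283). Irf5, a factor of macrophages and B cells, had a change of 0.68 with a wide error (SE 0.46, adjusted p = 0.424). Stat2 and Irf9, partners in the complex that type I interferon activates, had changes of opposite sign, 0.22 (adjusted p = 0.527) and -0.29 (adjusted p = 0.359). Irf2, known as an antagonist of Irf1, had a change of -0.25 (adjusted p = 0.534). Irf7, the main amplifier of type I interferon production, was well above background on 1 induced and 1 uninduced array and was not tested.

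None of the 5 nucleic acid sensors passed the test or had an unadjusted limma p under 0.05, and their changes lay between -0.50 and 0.30. Ddx58, which encodes the RNA sensor RIG-I, had levels of 0.91, 0.77 and 0.84 on the 3 induced arrays, against 0.76, 0.90 and 1.09 on the 3 uninduced arrays. The uninduced arrays bracketed the induced ones on both sides, and the change was -0.07 (SE 0.15, adjusted p = 0.790). The related helicases Ifih1 and Dhx58 had changes of -0.05 and -0.16. Eif2ak2, the kinase that halts translation on double-stranded RNA, had a change of 0.30 (adjusted p = 0.538), and Zbp1, a sensor of Z-form nucleic acid, one of -0.50 (adjusted p = 0.291).

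The active enzymes among the OAS proteins make oligoadenylates that activate an RNA-degrading enzyme. None of the 3 genes of this family that were tested passed, although Oas1a had an unadjusted limma p under 0.05. Oas1a had levels of -5.22, -4.34 and -5.96 on the 3 induced arrays, against -4.57, -4.07 and -3.75 on the 3 uninduced arrays. Its probe was well above background on 2 of 3 induced and on all 3 uninduced arrays, the groups overlapped, and the change of -1.04 (SE 0.43) did not pass (adjusted p = 0.221). Oasl1 and Oasl2, which lie next to each other on chromosome 5, had changes of -0.13 and 0.35, each smaller than its SE of 0.35 and 0.55. Oas2 was well above background on 1 array of each group.

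The IFIT proteins bind foreign RNA, and Ifit3 fell. Its levels were -4.31, -4.40 and -4.74 on the 3 induced arrays, against -2.99, -2.94 and -3.29 on the 3 uninduced arrays. All 3 induced arrays were below all 3 uninduced ones, and the pairs differed by nearly the same amount, -1.32, -1.45 and -1.44. Ifit3 averaged -4.48 ± 0.23 in induced cells and -3.08 ± 0.19 in uninduced cells (SD, n = 3 each), 2.65-fold lower in induced cells (log2 change -1.40, SE 0.18, adjusted p = 0.00848). Scaled to spike-in controls, a setting that moved the median of all genes to 1.22, the Ifit3 change was -0.28 and did not pass (adjusted p = 0.725).

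Ifit2, the neighbour of Ifit3 on chromosome 19, had levels of -3.16, -3.15 and -3.36 on the 3 induced arrays, against -2.58, -2.88 and -3.36 on the 3 uninduced arrays. Its groups overlapped and its change of -0.28 (SE 0.22) did not pass (adjusted p = 0.487). Ifit1 was well above background on no induced array and on 1 uninduced array, so it was not tested. Its signals were -6.44, -7.62 and -6.61 on the 3 induced arrays, against -5.15, -7.47 and -6.98 on the 3 uninduced arrays. The IFIT, IFITM, OAS and guanylate-binding families hold closely related copies, so a probe may read more than 1 of them and values of single copies are uncertain.

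The IFITM proteins sit in membranes and block the entry of viruses. Ifitm1, Ifitm2 and Ifitm3 lie side by side on chromosome 7, and in all 3 every induced array was above every uninduced one, but they differed in size. Ifitm1 had levels of 4.46, 5.15 and 4.41 on the 3 induced arrays, against 1.55, 1.81 and 0.48 on the 3 uninduced arrays. The lowest induced array was 2.59 above the highest uninduced one. Ifitm1 averaged 4.67 ± 0.41 in induced cells and 1.28 ± 0.71 in uninduced cells (SD, n = 3 each), a 10.5-fold rise (log2 change 3.39, SE 0.39, adjusted p = 0.00561) that was the highest among the members, and the pairs differed by 2.91, 3.33 and 3.93.

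Ifitm3 had levels of 4.85, 4.45 and 4.54 on the 3 induced arrays, against 4.41, 3.60 and 3.47 on the 3 uninduced arrays. Uninduced array 1 stood apart from the other two and came close to the induced arrays. The change of 0.79 (SE 0.28) did not pass (adjusted p = 0.166), and it passed with the replicate block (adjusted p = 0.0331) and without uninduced replicate 1 (change 1.08, adjusted p = 0.0335). Ifitm2 had levels of 4.01, 3.78 and 4.37 on the 3 induced arrays, against 3.40, 3.46 and 3.57 on the 3 uninduced arrays. Its change of 0.58 (SE 0.19) did not pass (adjusted p = 0.136, and 0.0540 with the block). The Ifitm2 window before the start held 1 response element core, and those of Ifitm1 and Ifitm3 held none.

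The guanylate-binding proteins are GTPases that attack the compartments of intracellular microbes, and of the 3 members tested 1 rose and 1 fell. Gbp3 had levels of -0.57, -1.01 and -1.03 on the 3 induced arrays, against -2.12, -1.87 and -1.93 on the 3 uninduced arrays. The groups were apart by more than the spread within either, and Gbp3 rose 2.15-fold (log2 change 1.10, SE 0.18, adjusted p = 0.0179). It missed the threshold with another background correction, normexp (change 0.74, adjusted p = 0.0717), and without uninduced replicate 2 (adjusted p = 0.0676) or 3 (adjusted p = 0.0558). Gbp2, near Gbp3 on chromosome 3 with 1 coding gene between them, had overlapping groups and a change of 0.43 (SE 0.26, adjusted p = 0.376).

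Gbp6, on chromosome 5, had levels of -4.11, -4.83 and -5.06 on the 3 induced arrays, against -3.47, -3.23 and -3.60 on the 3 uninduced arrays. The induced arrays were all lower, and Gbp6 fell by 1.23 on the log2 scale (SE 0.27, adjusted p = 0.0473). That call held under only 4 of 17 alternative settings, the fewest of the 6 calls, and the technical repeats went the other way, with -1.95 on the induced repeat and -3.20 on the uninduced one. With the repeats added to their groups as further arrays the change was -0.61 (adjusted p = 0.492).

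**Figure D2:**
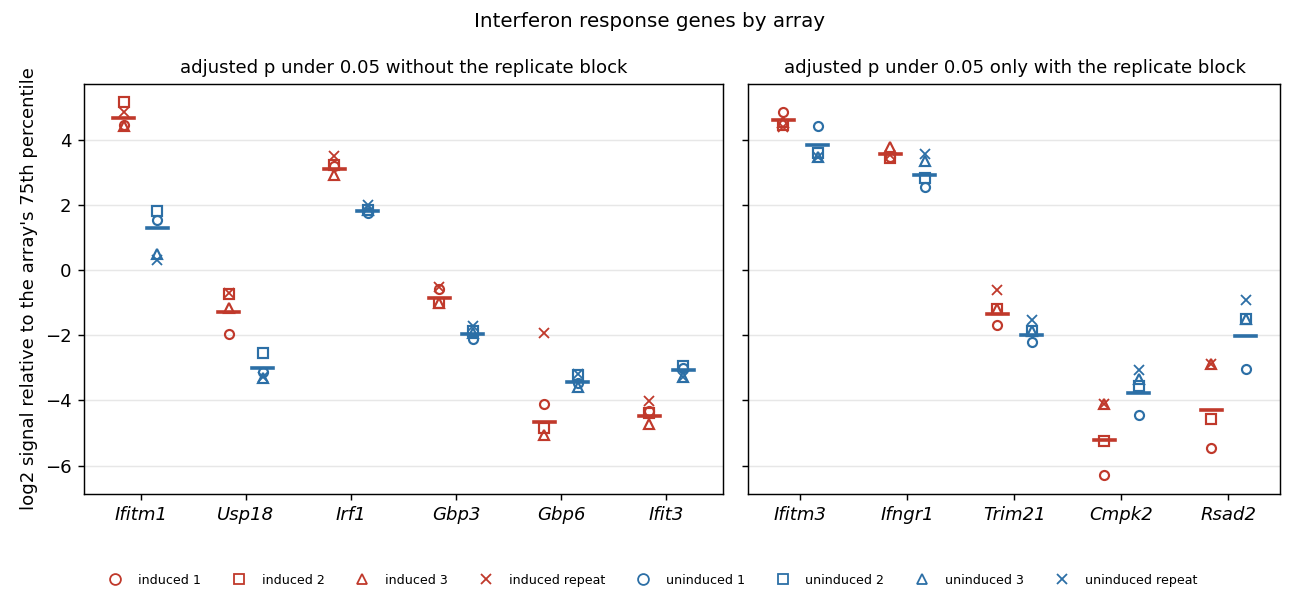
Log2 signal relative to the array's 75th percentile on each array for the 6 members that rose or fell (left) and the 5 that passed only with the replicate block (right), induced arrays in red left of uninduced arrays in blue; bars are the means of 3 replicates, and crosses are the technical repeats, which enter no mean. The Ifitm1 groups are 2.59 apart at their closest, the Ifitm3 groups nearly touch, and the induced repeat of Gbp6 lies above every other Gbp6 array.

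Isg15 encodes a ubiquitin-like protein that is attached to other proteins in interferon-treated cells, and Usp18 encodes the enzyme that removes it and also damps signalling at the type I receptor. Usp18 had levels of -1.95, -0.73 and -1.16 on the 3 induced arrays, against -3.14, -2.54 and -3.33 on the 3 uninduced arrays. Every induced array was above every uninduced one, although induced array 1 was well below the other two. Usp18 averaged -1.28 ± 0.62 in induced cells and -3.00 ± 0.41 in uninduced cells (SD, n = 3 each), a 3.3-fold rise (log2 change 1.72, SE 0.36, adjusted p = 0.0398). It missed the threshold in 5 of 6 fits that left out 1 replicate (adjusted p between 0.0676 and 0.119) and with normexp (change 0.93, adjusted p = 0.121).

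Isg15 itself had levels of 0.49, 0.50 and 0.16 on the 3 induced arrays, against 0.04, 0.24 and -0.05 on the 3 uninduced arrays. Its groups overlapped, its change was 0.30 (SE 0.17, adjusted p = 0.341), and its second probe gave the same 0.30. Trim21, an antibody receptor with ubiquitin ligase activity, had levels of -1.68, -1.18 and -1.19 on the 3 induced arrays, against -2.22, -1.86 and -1.86 on the 3 uninduced arrays. Its groups did not overlap, and its change of 0.63 (SE 0.20, adjusted p = 0.136) passed with the replicate block (adjusted p = 0.0255). Trim25, the ubiquitin ligase that activates RIG-I, had levels of 4.83, 4.63 and 4.87 on the 3 induced arrays, against 4.71, 4.44 and 4.71 on the 3 uninduced arrays. Here the groups overlapped, and the change of 0.16 did not pass (adjusted p = 0.572).

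None of the 7 other interferon-induced effectors tested passed without the block. Rsad2 and Cmpk2 had an unadjusted limma p under 0.05, and these 2 fell with the block. Rsad2 encodes viperin, which makes a chain-terminating nucleotide, and Cmpk2 encodes a mitochondrial nucleotide kinase; the genes are neighbours on chromosome 12 with 0 coding genes between them. Rsad2 had levels of -5.45, -4.58 and -2.87 on the 3 induced arrays, against -3.03, -1.51 and -1.50 on the 3 uninduced arrays. Replicate 1 was the lowest array of each group, and induced array 3 reached the level of uninduced array 1, so the groups overlapped while each pair differed in the same direction, by -2.42, -3.06 and -1.37. The change of -2.29 (SE 0.72) did not pass (adjusted p = 0.131), and it passed with the block (adjusted p = 0.0128) and without induced replicate 3 (change -3.00, adjusted p = 0.0492).

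Cmpk2 had the same array order, with levels of -6.30, -5.25 and -4.10 on the 3 induced arrays, against -4.45, -3.57 and -3.34 on the 3 uninduced arrays. Its probe was well above background on 2 of 3 induced and on all 3 uninduced arrays. The change of -1.43 (SE 0.57, adjusted p = 0.214) passed with the block (adjusted p = 0.0198). The Cmpk2 window before the start held RUNX motifs at bases 95 and 18 and no response element core.

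Bst2, which tethers budding viruses to the cell surface, had levels of 4.11, 3.79 and 4.26 on the 3 induced arrays, against 3.80, 3.77 and 4.05 on the 3 uninduced arrays. The groups overlapped, and the change of 0.18 did not pass (adjusted p = 0.572). Ifi35, Ifi27, Xaf1 and Parp14 had changes between -0.47 and 0.17, none past the test. Ifi44 was well above background on none of the 8 arrays.

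The members' errors were smaller with the replicate number as a block. Their median SE was 0.15 with the block and 0.22 without it, and over all genes it was 0.14 and 0.21. Within the numbered pairs, 17 members were higher in the induced array of all 3 pairs, 11 were lower in all 3, and 9 were mixed. The mixed ones were Ifih1, Ddx58, Oasl1, Oasl2, Ifit2, Ifi35, Ifi27, Xaf1 and Parp14. Like shares of all genes were not computed for the pairs, so these counts do not set the members apart. The block changed the call of 5 members (Ifitm3, Ifngr1, Trim21, Rsad2 and Cmpk2), and every one of the 6 calls made without it was also made with it.

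**Figure D3:**
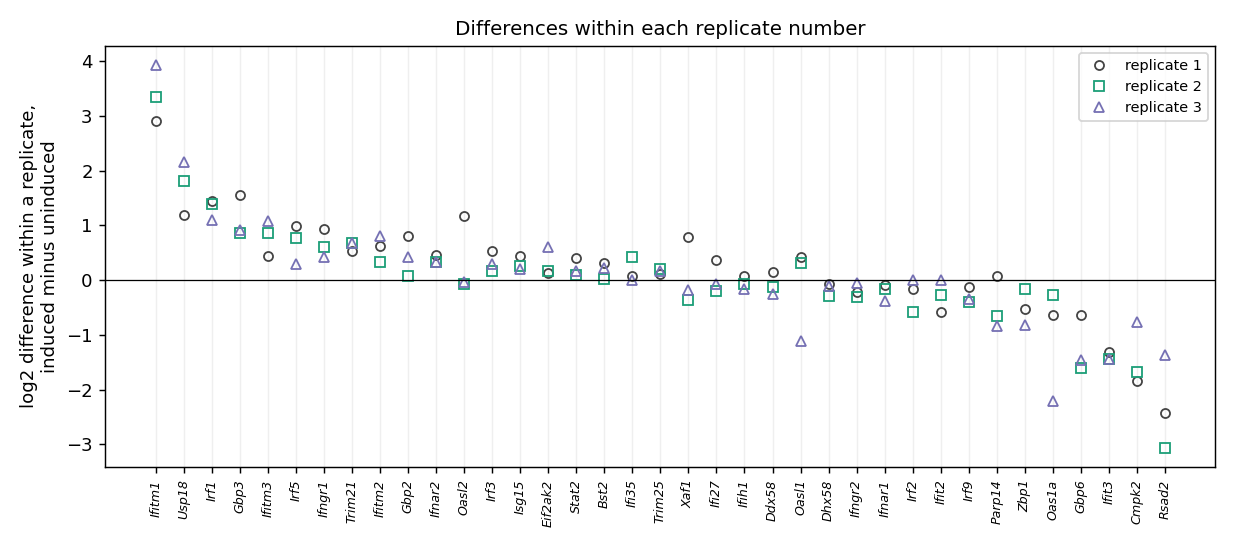
Difference in log2 signal between the induced and the uninduced array of the same replicate number, for each of the 37 tested members in order of their change; circles, squares and triangles are replicates 1, 2 and 3. Ifit3 pairs lie between -1.45 and -1.32, while Rsad2 pairs range from -3.06 to -1.37.

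The technical repeat arrays gave a further reading that did not enter the calls; the labels do not name the replicate they repeat. Between them, induced minus uninduced, 28 of the 37 members had the sign of the fitted change (75.7%, beside 77.6% of all genes). The difference was 4.55 for Ifitm1, 2.59 for Usp18, 1.51 for Irf1 and 1.21 for Gbp3, each above the fitted change. It was -0.74 for Ifit3, -1.95 for Rsad2 and -1.04 for Cmpk2. The 9 with the opposite sign were Ifngr1, Ifngr2, Irf9, Ifih1, Ddx58, Dhx58, Oasl2, Gbp6 and Ifi35.

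**Figure D4:**
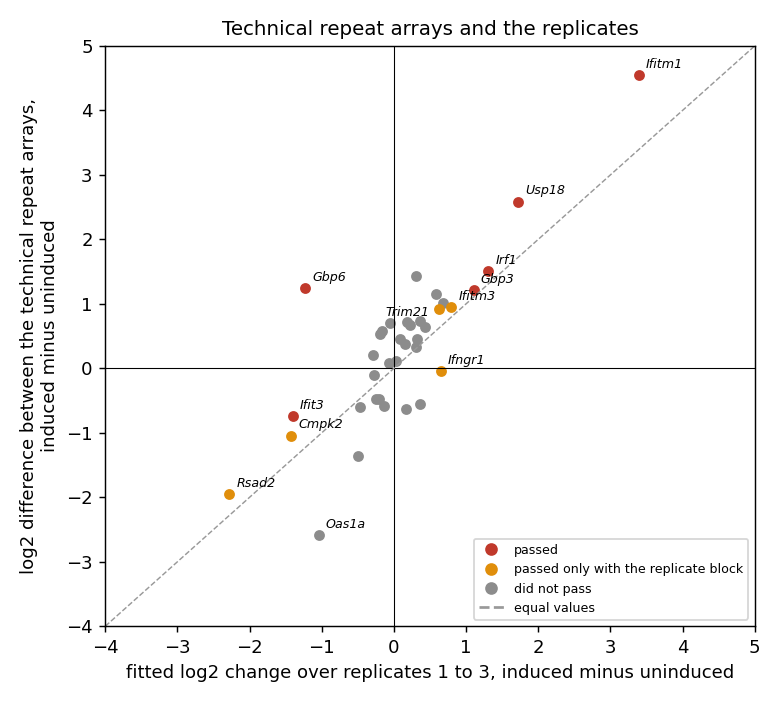
Fitted log2 change over replicates 1 to 3 (horizontal) against the log2 difference between the technical repeat arrays (vertical), both induced minus uninduced, 1 point per tested member; the dashed line marks equal values. Ifitm1, Usp18, Irf1 and Gbp3 lie above the line at the upper right, and Gbp6 is at -1.23 in the fit and 1.25 between the repeats; the induced repeat of Oas1a was not well above background, so its vertical place is only a bound.

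Of 113 other genes of the pathway, 105 had a probe and 88 were tested. In this list 7 rose, 1 fell and 80 did not pass, 9.09% called beside 6.3% of all genes, with a median change of 0.01. The fit with the block called 12 higher (13.6%, beside 9.37% of all genes) and 7 lower (7.95%, beside 6.8%). The list holds interferon ligands, JAK-STAT proteins, other regulatory factors, sensing adaptors and further interferon-stimulated genes.

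No interferon ligand passed the test or had an unadjusted limma p under 0.05. Of the 4 tested (Ifna1, Ifna2, Ifna5 and Ifnl3) the changes lay between -0.37 and 0.07, and the probes of Ifnb1, Ifna4 and Ifnk were well above background on none of the 6 arrays. The Ifna genes are closely related copies too, so these values may not belong to single ligands. Ifne was well above it on 1 induced array, and Ifng on 1 uninduced array.

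Of 14 JAK-STAT genes, 3 rose and 11 did not pass. The 11 include Socs3, a relative of Socs1, and Ptpn2, Ptpn11 and Pias1, all with overlapping groups. Socs1, an inhibitor of JAK kinases that interferon itself induces, had levels of 1.74, 2.00 and 2.03 on the 3 induced arrays, against 0.05, -0.13 and 0.26 on the 3 uninduced arrays. The groups were 1.48 apart at their closest, and Socs1 rose by 1.87 on the log2 scale (SE 0.17, adjusted p = 0.00303). Ptpn6, a phosphatase of blood cells that restrains receptor signalling, had levels of 0.98, 1.85 and 1.62 on the 3 induced arrays, against -0.87, -0.24 and -0.43 on the 3 uninduced arrays. It rose by 1.99 (SE 0.28, adjusted p = 0.0110), with the groups well apart. Stat4, a STAT of lymphoid and myeloid cells, had levels of -1.87, -0.66 and 0.08 on the 3 induced arrays, against -3.86, -3.85 and -4.15 on the 3 uninduced arrays. It rose by 3.14 (SE 0.47, adjusted p = 0.0133), and its induced arrays spread over nearly 2 log2 units. Jak1, a kinase of both interferon receptors, had a change of 0.21 (adjusted p = 0.449).

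None of the 5 other regulatory factor genes passed or had an unadjusted limma p under 0.05; the brightest, Irf2bp2, which encodes a partner of Irf2, had a change of 0.42 (adjusted p = 0.352). Among 16 sensing adaptors and kinases, Sting1 fell and 0 rose, and at an unadjusted limma p under 0.05 the counts were 2 lower and 0 higher. Sting1, the adaptor that signals from DNA sensing to Irf3, had levels of 2.36, 2.35 and 2.57 on the 3 induced arrays, against 3.46, 3.30 and 3.20 on the 3 uninduced arrays. The induced arrays were all lower, with a change of -0.89 (SE 0.15, adjusted p = 0.0196). That call did not hold with median centring, spike-in scaling or no filter on dim probes, nor without induced replicate 1 or 2 or without uninduced replicate 2.

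Of 49 other interferon-stimulated genes, 4 rose and 0 fell by limma without the block, and at an unadjusted p under 0.05 there were 11 higher and 7 lower. Ifi204, of the DNA-binding p200 family, had levels of 2.84, 0.99 and 1.64 on the 3 induced arrays, against -1.54, -2.58 and -1.88 on the 3 uninduced arrays. It rose by 3.82 (SE 0.50, adjusted p = 0.00857), the highest change in the list, though close relatives may share its probe. Ifitm6 was well above background on all 3 induced and on no uninduced array, and was at least 1.53-fold higher in induced cells. It entered the test only through the induced arrays, so its call adds nothing to that bound. Among probes well above background on all 6 arrays, 6 other pathway genes rose. Plscr1, a membrane protein that limits viral entry, rose by 1.52 (SE 0.33, adjusted p = 0.0461), and Samd9l, an antiviral factor that restrains translation, rose by 1.13 (SE 0.21, adjusted p = 0.0278).

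With the block, the guanylate-binding genes of this list also divided. Gbp7 was higher (0.78, SE 0.21, adjusted p = 0.0904, and 0.0458 with the block). Gbp4 had levels of -4.85, -3.77 and -2.83 on the 3 induced arrays, against -2.72, -1.16 and -0.73 on the 3 uninduced arrays. All induced arrays were below all uninduced ones. Its change of -2.28 (SE 0.66, adjusted p = 0.110) passed with the block (adjusted p = 0.00202), as did that of Gbp9 (-1.24, SE 0.40, adjusted p = 0.140, and 0.0195 with the block). Also higher with the block were Samhd1, Irgm1, Lgals9 and Tor3a, and also lower were Tdrd7, Fas, Ube2l6 and Ifnlr1.

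Markers of blood and endothelial cells also differed between the groups. Of 12 blood progenitor markers 6 rose (Spn, Myb, Gfi1, Ikzf1, Coro1a and Was), with mean levels between -0.31 and 0.75 on induced arrays and between -2.51 and -1.60 on uninduced arrays. Of 12 endothelial markers 4 fell (Tek, Eng, Ecscr and Sox17), with mean levels between 0.94 and 2.80 on induced arrays and between 2.69 and 4.01 on uninduced arrays. Of 10 macrophage and granulocyte markers tested, of 12 listed, 4 rose (Ctsg, Fcgr3, Fcer1g and Ncf1) and Csf1r fell, with mean levels of the 10 between -1.54 and -0.74 on induced arrays and between -3.20 and -2.72 on uninduced arrays. Of 5 mast cell and basophil markers tested, of 8 listed, Mcpt4 and Mcpt8 rose, while Ms4a2 and Fcer1a were well above background on no array. Mean levels of the 5 lay between -0.61 and -0.51 on induced arrays and between -3.33 and -2.69 on uninduced arrays. These means do not describe each marker, since changes ran from -0.42 to 6.96 with a median of 0.57. The groups of Kit, Tpsb2 and Hdc overlapped, and 2 of the 5 markers were lower in the induced array of all 3 pairs. None of the 7 lymphocyte, 4 plasmacytoid dendritic cell or 7 smooth muscle and mesenchymal markers tested passed by limma; at an unadjusted p under 0.05 there were 1, 0 and 2 of them. With the replicate block 7 blood progenitor and 7 macrophage and granulocyte markers were called higher. Called lower with it were 8 endothelial markers and 1 macrophage and granulocyte marker. Of the smooth muscle and mesenchymal markers, the block called Pdgfra higher and Acta2 and Col3a1 lower. Cd3g and Myh11 were well above background on none of the 6 arrays. Their part in the changes of the interferon response genes was not tested.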

How the data were processed

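Total RNA of 3 induced and 3 uninduced cultures, and 1 technical repeat per group, was hybridised to 8 1-colour Agilent arrays (Cy3). The authors deposited scanner output that gives each spot's processed signal, a linear intensity, made with Feature Extraction version 10.7.3.1 per the file headers (10.7.1.1, with limma, per the submitters' processing notes). They also deposited a table of log2 values; the sources used here do not say how it was normalized.

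From the intensities, log2 was taken and each array's 75th percentile subtracted, without control spots and outlier flags; no spot was saturated. Spots of a probe were averaged, 59305 spots giving 55681 probes. RefSeq accessions gave 1 symbol to 26582 probes and none to 29099. Probes well above background on all 3 arrays of at least 1 group were kept, and each gene was read from its brightest kept probe. Where a probe was below background on all arrays of a group, a bound was computed against the dimmest signal well above background. Groups were compared with limma 3.58.1 in R 4.3.3 (two-sided, Benjamini-Hochberg over 14519 genes), without a replicate block. The number of arrays limits the precision, and p-values measure the spread between these cultures, whose independence rests on the labels. Same-numbered arrays vary together, as given below, and the fit without the block counts variation between replicate numbers as error.

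Same-numbered arrays deviated together from their group means (r = 0.65, 0.45 and 0.43 over 14498 genes with no missing value), so the numbers pair them and the block fit is given where it changes a call. All 8 arrays shared 1 slide and 1 scan time. The script was tested on simulated data drawn without the pairing of the arrays, which checks the code and not the calls made here. Members and lists were chosen with earlier results of these data known. Named with every array's value were members past the threshold with or without the block, those below background on all arrays of 1 group only, and the brightest of each role; of other lists, genes past the threshold and the brightest of a role with none. Gbp4, Gbp7, Gbp9, Jak1 and the other genes called only with the block were named after their values were seen. Alternatives changed background correction (normexp with an offset of 50 on the median signal, since the mean signal is not in the files used here), normalization, filter, probe rule, block, source of values and the arrays used.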

Additional observations from a re-analysis of the deposited data

How the results depend on the processing

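Of all genes, 915 passed the threshold, against 534 with no filter on dim probes, 2347 with the replicate block, 1584 with the technical repeats added as further arrays, which counts an RNA more than once, and 378 to 824 when 1 array was left out. Members that rose numbered 4, against 2 with normexp, 7 with the block and 2 to 4 with 1 array left out (2 without uninduced replicate 2 or without uninduced replicate 3). Members that fell numbered 2, against 4 with the block, 0 with spike-in scaling, 1 with normexp, quantile normalization, median centring, no filter, the value table read by the array each column tracks, or the repeats added, and 1 to 2 with 1 array left out. Other pathway genes that rose numbered 7, against 12 with the block or the repeats and 3 to 8 with 1 array left out (3 without induced replicate 2 or uninduced replicate 2). Other pathway genes that fell numbered 1, against 7 with the block, 3 with the repeats, 0 with median centring, spike-in scaling or no filter, and 0 to 1 with 1 array left out. The cause was not tested.

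In the authors' value table only 2 of 8 columns tracked the array they are named for, over 19751 spots. Columns read by name therefore mix the groups as the scanner output labels them. Read so, limma called 0 genes in all, and 0 members and 0 other pathway genes in either direction (223 genes and 0 members at an unadjusted p under 0.05), and changes turned for Ifit3 (0.028), Ifitm3 (-0.40), Gbp6 (0.012), Rsad2 (0.93) and Cmpk2 (0.57). Reading columns by the array they track was chosen after seeing the data. The groups used here rest on the labels of the scanner output. Whether those or the column names are wrong was not tested.

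With spike-in scaling the median change was 1.22 for all genes, against 0.09, and 1.29 for the members, against 0.16, and 33 members were above 0 and 4 below, so directions here are relative to the other genes. With normexp the members' median was -0.07 and that of all genes 0.04. Ifitm1 and Irf1 passed under every alternative but the table read by name, and Ifit3 under every one but that and spike-in scaling. Gbp6 missed the threshold, with its sign kept, under 12 of 17. The replicate block changed the call of no member other than the 5 named. The slide could not be used as a block, since all arrays share 1. Dim probes such as those of Cmpk2, Oas1a and Ifit1 limit what can be seen of those genes. Ifit3 and Gbp6, which fell, were also dim on the induced arrays. With normexp their changes were smaller, -0.85 for Ifit3 (limma adjusted p = 0.0281) and -0.72 for Gbp6 (limma adjusted p = 0.0524).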

Other observations

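The technical repeat arrays, which no label ties to a replicate, lay outside the range of the 3 replicates for 25 of 37 tested members in the induced group (20 above, 5 below) and for 21 of 37 in the uninduced group (14 above, 7 below). Of all genes, 73.3% lay outside it in the induced group (50.8% above, 22.5% below). In the uninduced group 41.7% did (26.8% above, 14.9% below). Over all genes, replicate 3 was the closest to each, with a median absolute log2 difference of 0.40 in the induced group and 0.19 in the uninduced group.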
